A study of Mus musculus with 24 samples.

Results

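Methylation of the DNA was described at 9 genes of insulin and mTOR signalling in brown adipose tissue (BAT) of infant female mice. Insulin binding to its receptor leads to phosphorylation of the adaptor Irs1, which recruits phosphatidylinositol 3-kinase, and the lipid this kinase makes brings Akt to the membrane. The phosphatase Ptpn1 and the adaptor Grb14 restrain the receptor, mTOR complex 2 phosphorylates Akt, and the kinase Lkb1 with its partners feeds energy stress into the same network through AMPK. In BAT, insulin drives glucose uptake and fat storage, which supply the fuel for heat production. Methylation of CpG sites is usually low at the starts of such widely used genes and high in the bodies of genes and between them.

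The members were Irs1, Ptpn1, Pik3ca (the catalytic subunit of the kinase), Mapkap1 and Prr5l (subunits of mTOR complex 2), Stradb and Cab39 (scaffolds that activate Lkb1), Grb14 and Pck1. The last encodes a phosphoenolpyruvate carboxykinase, which makes glycerol for triglycerides in fat and whose transcription insulin represses. They were chosen by gene name, as every MspI fragment that the authors' annotation assigns to one of these 9 genes, which gave 214 of the 65535 fragments in the table. A fragment is the stretch between neighbouring CCGG sites, the cutting site of MspI, and its level is the percentage of CpG calls in reads that were methylated. All 9 genes lie on chromosomes 1, 2 and 3, the only chromosomes the table reaches.

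The tissue came from C57BL/6J mice at postnatal day 12 whose dams were gavaged from mid-gestation until shortly after birth with DDT, a mixture of its o,p' and p,p' isomers, or with olive oil as vehicle (VEH). Both groups held 12 libraries, and each library was a pool of 2 to 5 female littermates, so the replicate was the litter. The tissue holds several cell types, and a change in the makeup of the cells cannot be told apart from a change of methylation within them. Of the marker genes, 2 of 3 adipocyte genes, 4 of 5 muscle genes and 1 of 6 leukocyte genes had a tested fragment within 1000 bp of the start. In VEH these stood at 10.04% at Fabp4 and 1.27% at Fabp5, against 64.2% at Myog, 94.4% at Neb, 10.3% at Des, 13.7% at Ttn and 66.8% at Cd2. Methylation at a start does not give expression, so the identity of the tissue rests on its label.

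The libraries held 8371958 to 14124652 CpG calls each. DDT replicate 4 stood apart. Its 12788050 calls in all lay within the range of the other libraries. Its median was 11 calls at the tested fragments of the 9 genes, against 173 to 352 in the other 23 libraries. Its mean level over the tested fragments of the table where it had a level was 16.9%, against 28.4% to 34.2%. The lower end of that range was DDT replicate 12. These means cover different fragments in each library. The labels number DDT replicate 12 outside the consecutive run of the other libraries and give no reason. Over the 31 fragments of the 9 genes with levels in all 24 libraries, DDT replicate 4 had 14.4%. There DDT replicate 12 had 14.6%, and the highest library, DDT replicate 3, had 19.4%. Levels were taken from libraries with at least 10 calls, and the test was run on fragments with such levels for no fewer than 8 litters per group. By this rule 72 of the 214 fragments were tested: 21 of 66 at Ptpn1, 10 of 20 at Stradb, 9 of 34 at Prr5l, 8 of 22 at Irs1, 7 of 17 at Cab39, 5 of 14 at Mapkap1, 5 of 10 at Grb14, 5 of 28 at Pck1 and 2 of 3 at Pik3ca. The tested fragments had a median length of 58.5 bases and the 142 others one of 127 bases. At 101 of those 142, no library reached 10 calls.

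The fragments on which the results turn are given here on the reference (+) strand of GRCm38, with the CpG sites in capitals. Irs1, Prr5l and Grb14 are read from the other strand. Distances are from the gene start in the authors' annotation and are positive inside the gene. The Irs1, Prr5l and Ptpn1 fragments that follow had the smallest p-values of the 9 genes, and for Prr5l and Ptpn1, which lie in untranslated regions, 30 bases are shown.

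Irs1 at +8030 bp, chr1:82283363-82283409: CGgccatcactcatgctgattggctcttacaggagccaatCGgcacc
Prr5l at +85456 bp, chr2:101797542-101797571: tggagagaaactagCGattCGgctggttct
Ptpn1 at +45116 bp, chr2:167977135-167977164: CGgagcttgcaggtgccctggagccccatc

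The Cab39 fragment was called only when fewer libraries were required, and the Irs1 fragment is the tested one with the most CpG sites within 1000 bp of that gene's start outside an untranslated region.

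Cab39 at +672 bp, chr1:85794046-85794181: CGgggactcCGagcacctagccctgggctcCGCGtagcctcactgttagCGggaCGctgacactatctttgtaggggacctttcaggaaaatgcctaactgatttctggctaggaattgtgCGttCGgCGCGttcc
Irs1 at -276 bp, chr1:82291640-82291745: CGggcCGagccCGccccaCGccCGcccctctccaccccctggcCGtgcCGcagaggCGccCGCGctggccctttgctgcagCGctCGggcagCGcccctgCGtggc

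The next 4 fragments are shown for the spread between litters and were chosen after their values were seen, from those with at most 30 bases in untranslated regions. The Pck1 and Ptpn1 fragments had the largest excess of the DDT SD over the VEH SD, Grb14 the largest VEH SD relative to counting error and Pik3ca the largest VEH SD.

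Pck1 at -100746 bp, chr2:173052218-173052386: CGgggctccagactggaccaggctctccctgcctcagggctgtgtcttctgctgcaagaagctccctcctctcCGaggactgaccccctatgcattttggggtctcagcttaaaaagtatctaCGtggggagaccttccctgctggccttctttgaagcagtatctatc
Ptpn1 at -11742 bp, chr2:167920299-167920331: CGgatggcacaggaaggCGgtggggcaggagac
Grb14 at +2512 bp, chr2:65022435-65022514: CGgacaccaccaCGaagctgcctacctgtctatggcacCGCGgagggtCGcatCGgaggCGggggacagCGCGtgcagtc
Pik3ca at +41252 bp, chr3:32438905-32438942: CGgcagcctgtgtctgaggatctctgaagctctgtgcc

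DDT exposure was compared with VEH to ask whether perinatal DDT left a mark on these genes in infant BAT. None of the 72 fragments passed an adjusted p of 0.05 (F test on the levels, adjusted by the method of Benjamini and Hochberg across the 20225 tested fragments of the table), and their smallest adjusted p was 0.869. Of all tested fragments, 0% passed. Read at the unadjusted p, 3 of the 72 fragments were under 0.05 (4.17%), against 4.18% of all tested fragments, so the share at these genes was that of the table. The 3 were 1 each at Irs1, Ptpn1 and Prr5l, and all 3 were lower in DDT, a direction in which 2.93% of all tested fragments had a p under 0.05. With limma on log2 ratios of the calls the count was also 3. With a quasi-binomial regression it was 2, Irs1 +8030 bp and Ptpn1 +42116 bp. By that regression the Ptpn1 fragment at +45116 bp and the Prr5l fragment were not under 0.05. Both methods called 0 fragments after adjustment. The shares of all tested fragments by these methods are not given here.

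The levels themselves followed the distance from a gene start. At 33 tested fragments the nearest annotated start lay within 1000 bp and was that of their own gene. All 33 were under 20% in VEH and 29 were under 10%, with a median of 3.91%. At a further 5 fragments the nearest start within 1000 bp was that of another gene, and these were between 3.03% and 6.44%. That gene was Rhbdd1 for 3 of the fragments assigned to Irs1, Trak2 for 1 assigned to Stradb and 1200007C13Rik for 1 assigned to Ptpn1. The Stradb fragment, at -148 bp, also lay within 1000 bp of the start of its own gene. The 34 fragments farther from any start had a median of 77.5% and ran from 5.45% to 98.9%, and 27 of them were over 50%. The fragments at own starts held a median of 11.8 CpG sites per 100 bases and those away from starts 3.58.

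**Figure D1:**
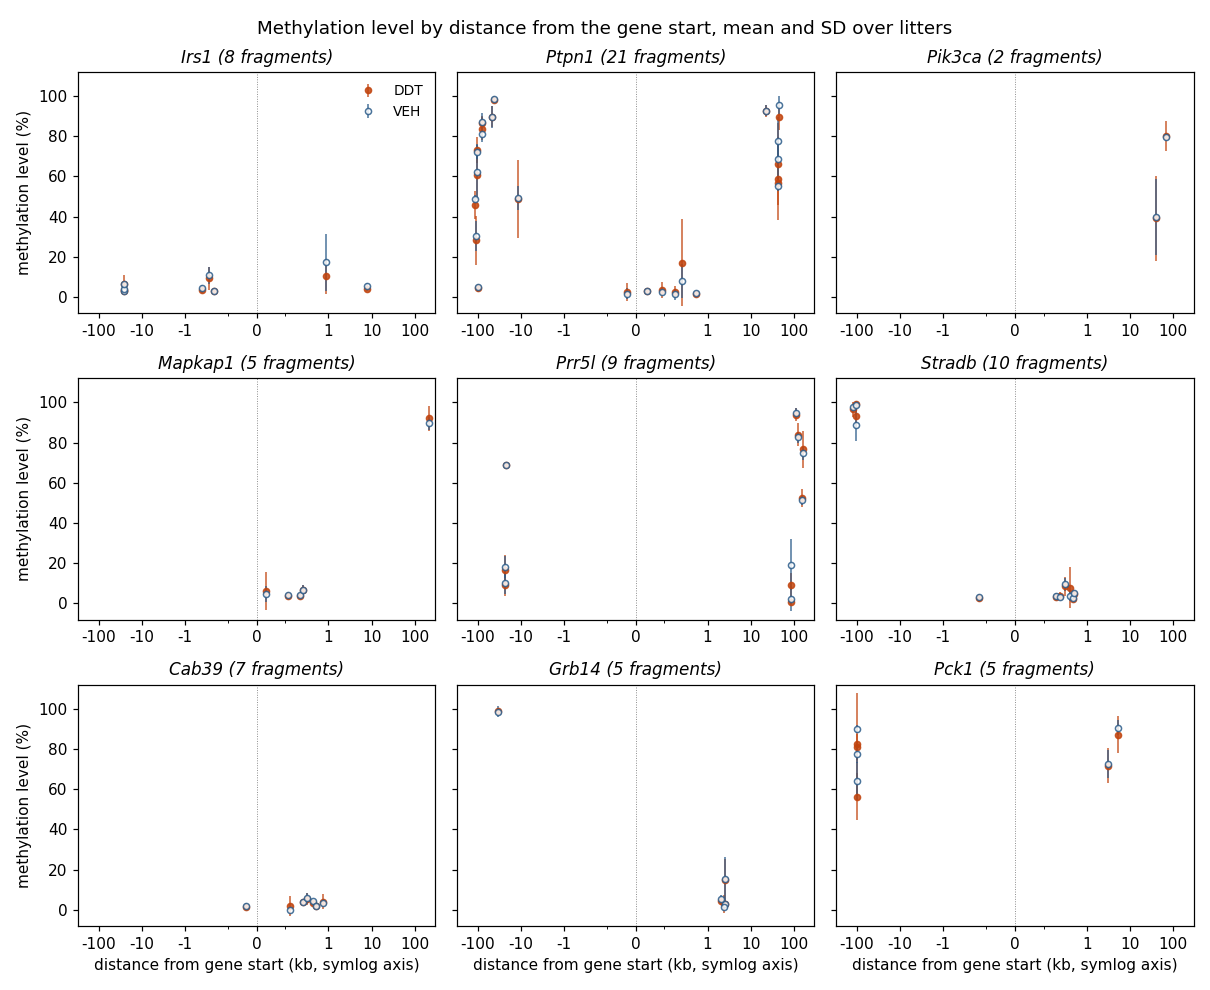
Mean methylation level in percent (y axis) of each tested fragment against its distance from the gene start in kb (x axis, symmetric log scale), 1 panel per gene, for DDT (filled) and VEH (open), with bars of 1 SD over the litters with a level. Fragments near the starts lay under 20% in both groups and most others over 50%, and the DDT and VEH means lay close together.

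At the receptor end of the pathway, the start of Irs1 was sparsely methylated. The fragment nearest to the start, at -206 bp, was at 3.22% ± 1.48 (SD, n = 12) in DDT, against 3.22% ± 1.005 (SD, n = 12) in VEH, a difference of -0.00107 percentage points with a 95% interval from -1.07 to 1.07. The neighbouring fragment at -276 bp, which has 14 CpG sites, was higher, with 9.34% ± 5.67 (SD, n = 12) and 10.9% ± 4.18 (SD, n = 12), and its litters ran from 0.167% in DDT replicate 4 to 22.1% in DDT replicate 3. In the exon downstream of the start, at +892 bp, the means were 10.4% in DDT and 17.3% in VEH over 14 to 278 calls, and the litters covered 0% to 23.1% and 0% to 45.5%. That difference, -6.88 percentage points, had an interval from -18.4 to 4.58.

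The Irs1 fragment with the smallest p of all 72 lay in the intron, 8030 bp inside the gene. The 11 DDT litters ran from 1.76% over a median of 4.05% to 5.46%, and the 12 VEH litters from 2.76% over 5.38% to 8.33%, with 153 to 435 calls per library. The groups overlapped, and 9 of 11 DDT litters were under the VEH median. The means were 3.95% ± 1.11 (SD, n = 11) and 5.45% ± 1.41 (SD, n = 12), a difference of -1.49 percentage points with a 95% interval from -2.60 to -0.391 (p = 0.0103 by the F test, p = 0.00914 by a permutation test of 100000 resamples, two-sided, adjusted p = 0.869). DDT replicate 4, with 2 calls there, had no level. For limma the unadjusted p was 0.0255 and for the quasi-binomial regression 0.0168, and leaving out single libraries kept it between 0.0019 and 0.0217. The SD over the VEH litters was 1.003 times the counting SD, the spread that independent calls alone would give. Calls on the same read and copies of a read are not independent, so the counting SD is a lower limit of the technical spread. The fragment is no part of a CpG island in the authors' classes, yet its level lay in the range of the fragments at own starts. Of the 34 fragments farther from any start it had the lowest VEH mean, and 3 of them were under 20%.

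Ptpn1, which encodes the phosphatase PTP1B that removes phosphate from the insulin receptor, had the most fragments. The 6 at its start lay between 1.47% and 8.05% in VEH and between 1.72% and 17.2% in DDT, and the nearest to the start, at -30 bp, differed by 0.765 percentage points (interval from -2.25 to 3.78). The upper end in DDT was the fragment at +256 bp, with 17.2% ± 21.5 (SD, n = 9) against 8.05% ± 8.49 (SD, n = 12). There DDT replicate 2 had 63.2% (12 of 19 calls, 95% Wilson interval from 41.0% to 80.9%) and DDT replicate 9 had 43.5% (10 of 23 calls, 25.6% to 63.2%), while the highest VEH litter had 26.7%. The difference did not pass the test (p = 0.195 by the F test). Intervals on single libraries cover counting error only, since reads were amplified and carried no molecular identifiers.

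At the other end of Ptpn1, in what GENCODE gives as the 3' untranslated region and the authors' table as intron, the fragment at +45116 bp covers 1 CpG site. The 8 DDT litters ran from 81.0% over a median of 90.9% to 97.7% and the 10 VEH litters from 88.9% over 96.1% to 100%, with 14 to 43 calls each, and the groups overlapped. The means were 89.4% ± 6.10 (SD, n = 8) and 95.6% ± 4.50 (SD, n = 10), and the difference was -6.21 percentage points with an interval from -11.5 to -0.918 (exact permutation test, two-sided, p = 0.0278). The F test gave p = 0.0243 with an adjusted p of 0.869 in the fit over the table, and the quasi-binomial regression, which weights by calls, gave 0.118. DDT replicate 4 had 0 calls there. The 3 fragments before it in the gene were between 55.2% and 77.5% in VEH, and 2 of them had wide spreads in DDT. At +44100 bp the DDT litters ran from 20.7% over 66.1% to 80.5% and the VEH litters from 45.1% over 71.9% to 82.2%. The lowest DDT values were 20.7% in DDT replicate 12 (484 calls), 21.9% in DDT replicate 4 (32 calls) and 37.4% in DDT replicate 6 (278 calls). The difference of the means was -9.98 percentage points (p = 0.144 by the F test) with all libraries and -2.45 without DDT replicates 4 and 12. At +42116 bp, DDT replicate 12 was again the lowest, at 22.9% of 131 calls. The difference there went from -11.2 to -5.00 percentage points without DDT replicates 4 and 12. The quasi-binomial regression gave this fragment an unadjusted p of 0.0388 and the F test 0.152.

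Upstream of Ptpn1, the fragment at -11742 bp was near 50% in both groups, at 48.7% ± 19.4 (SD, n = 12) in DDT, against 49.2% ± 5.96 (SD, n = 12) in VEH. Of the DDT litters, DDT replicate 4 lay far from the rest, with 99.3% of 269 calls (Wilson interval from 97.3% to 99.8%). DDT replicate 12 was the lowest, at 20%, but this came from only 10 calls, so its counting error was wide. The other 10 DDT litters lay between 36.4% and 63.5%, with an SD of 8.80, and the VEH litters between 38.9% and 60.0%.

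Grb14 encodes an adaptor that binds the insulin receptor and blocks its kinase. Its 4 fragments at +2092 to +2583 bp surround the start that RefSeq gives, and 3 of them were between 1.18% and 5.18% in VEH. The one at +2512 bp, with 9 CpG sites in coding sequence, had a VEH SD 4.54 times the counting SD, the largest such ratio of the 72 fragments. Each of its reads can give several linked calls, so this ratio does not separate litters from technical spread. VEH litters ran from 7.57% over 11.6% to 47.2%, and DDT litters from 0% over 11.9% to 38.6%. The highest were VEH replicate 1 (68 of 144 calls methylated) and DDT replicate 3 (34 of 88 calls), 1 in each group, and the lowest was DDT replicate 4 with 0 of 1218 calls, which allows up to 0.246%. The group means, 14.8% ± 10.7 (SD, n = 12) in DDT, against 15.4% ± 10.7 (SD, n = 12) in VEH, differed by -0.671 percentage points (interval from -9.72 to 8.38). The Grb14 fragment with the smallest p, at +2422 bp, had a p of 0.221, and the one nearest to the annotated start, at +2092 bp, a p of 0.366. The distant fragment at -33872 bp was at 98.5% in VEH and 99.1% in DDT.

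Pik3ca was read at 2 places inside the gene, and the table had no tested fragment at its start. At +41252 bp, which covers 1 CpG site in an intron, the litters of both groups covered nearly the same wide range. The 10 DDT litters ran from 15% over 32.8% to 72.5% and the 12 VEH litters from 15.7% over 39.0% to 71.0%, with 12 to 62 calls. The VEH SD of 18.8 percentage points was the largest of the 72 fragments and 2.12 times the counting SD. The means of 39.2% and 39.8% differed by -0.621 (interval from -18.4 to 17.1). At +70138 bp the level was 80.1% ± 7.66 (SD, n = 11) in DDT, against 79.6% ± 2.09 (SD, n = 12) in VEH. DDT replicate 4 was the highest there, at 100%, and without it the difference went from 0.472 to -1.52 percentage points (p = 0.839 and 0.274 by the F test).

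**Figure D2:**
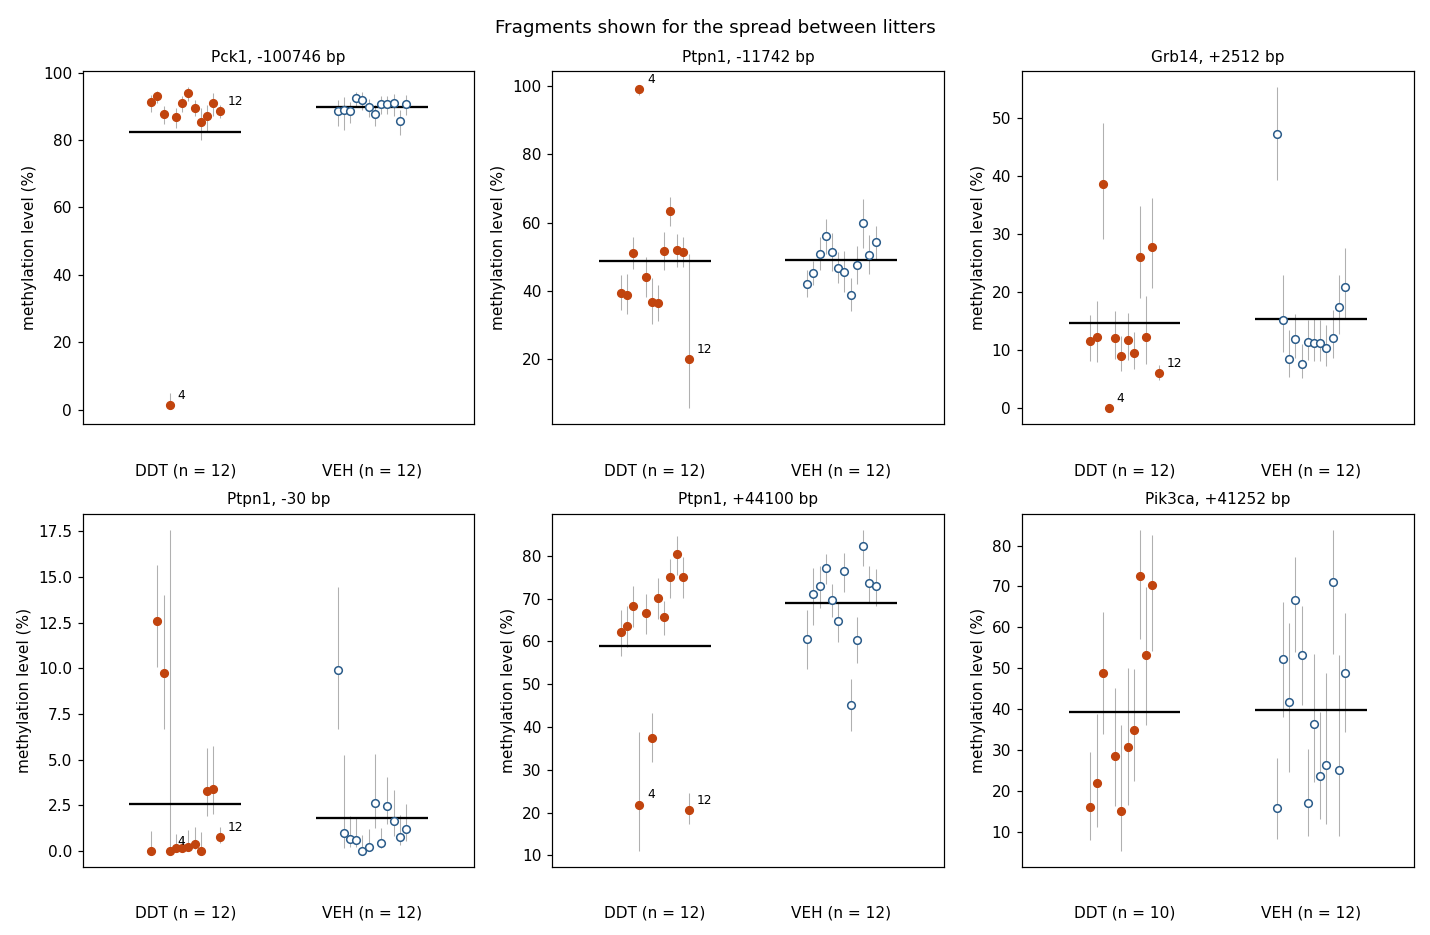
Methylation level in percent (y axis) of each litter with at least 10 calls at 6 fragments chosen for the spread between litters after their values were seen, for DDT (filled) and VEH (open), with black lines for the group means, grey bars for 95% Wilson intervals and the numbers 4 and 12 beside those DDT replicates. DDT replicate 4 lay far from the other litters at Pck1 -100746 bp and Ptpn1 -11742 bp, whereas at Pik3ca +41252 bp both groups were spread over the same range.

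Of the subunits of mTOR complex 2, Mapkap1 was low at its start and high inside the gene. Its 4 fragments at +34 to +261 bp were between 4.27% and 6.65% in VEH and between 3.86% and 6.79% in DDT. Nearest to the start, at +34 bp, DDT replicate 10 had 29.3%, while the highest VEH litter had 10.3%, and the difference was 1.38 percentage points (interval from -4.99 to 7.76). The intronic fragment at +214044 bp was at 92.0% ± 6.29 (SD, n = 10) in DDT, against 89.6% ± 3.25 (SD, n = 12) in VEH (p = 0.254 by the F test).

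Prr5l had no tested fragment at the start the authors used. The nearest tested one, at -22352 bp, was at 68.7% ± 1.26 (SD, n = 11) and 68.6% ± 0.859 (SD, n = 12) in DDT and VEH. A pair of neighbouring fragments at +85456 and +85552 bp lies by a start that GENCODE and RefSeq give for a shorter transcript, and both were low. At +85456 bp the 9 DDT litters ran from 0% over 7.69% to 20% and the 9 VEH litters from 0% over 21.4% to 37.5%. All 9 DDT litters were under the VEH median, although the groups overlapped. The means were 9.19% ± 5.95 (SD, n = 9) and 19.3% ± 12.6 (SD, n = 9), a difference of -10.1 percentage points with an interval from -19.9 to -0.248 (exact permutation test, two-sided, p = 0.0476). The F test gave p = 0.0451 and an adjusted p of 0.869 in the fit over the table. The libraries with a level had 10 to 48 calls except DDT replicate 12, which had 162. The p was 0.145 with the quasi-binomial regression and between 0.0559 and 0.0897 without any one of DDT replicates 1, 3, 5, 6, 7, 9 and 10 and VEH replicates 4, 5, 6, 9 and 11. The adjacent fragment at +85552 bp, with 21 to 767 calls, had a median of 0% in both groups and 1 litter, VEH replicate 6, at 20.9%. The 4 fragments farther inside the gene were between 51.3% and 94.9% in VEH, and their differences went from -1.01 to 2.10 percentage points.

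Stradb and Cab39, the partners of Lkb1, were low throughout their islands. At Stradb, the 6 fragments from +190 to +515 bp were between 2.60% and 9.51% in VEH, and the fragment nearest to the start, at -148 bp and in the 5' untranslated region of the neighbouring gene Trak2, was at 2.60% ± 1.96 (SD, n = 12) in DDT, against 3.03% ± 0.732 (SD, n = 12) in VEH. The 3 distant fragments at -119816 to -104724 bp were between 88.6% and 98.9%, and the last of these had the smallest p of the gene, 0.195, with 93.2% in DDT and 88.6% in VEH. At Cab39, all 7 tested fragments lay between -37 and +760 bp and were between 0% and 5.65% in VEH and between 1.42% and 5.31% in DDT. The one nearest to the start differed by -0.672 percentage points (interval from -1.77 to 0.424) and the one with the smallest p, at +442 bp, by -0.696 (interval from -1.64 to 0.244, p = 0.139 by the F test).

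A further Cab39 fragment, at +672 bp in the intron and the island, was too thinly covered for the test above. Where only 2 libraries of each group were required, 88 fragments of the 9 genes were tested and this one was called, the only one of 24498 fragments in the table (0.00408%), with an adjusted p of 5.25e-05 by the F test. It rested on 5 DDT litters at 0% and 3 VEH litters at 7.69%, 7.14% and 7.69%. Each of those VEH values was 1 methylated call, out of 13, 14 and 13 calls. The near equality of these values gave an SD of 0.317 percentage points, while the Wilson interval of a single VEH library went from 1.37% to 33.3%. With the levels of these 8 litters the exact permutation test gave p = 0.0357, the smallest value it can give with 5 against 3. With a minimum of 5 calls there were 7 litters of each group, at 0% and 3.22% ± 4.02 (SD, n = 7), and the exact permutation p was 0.192. Over all libraries, 0 of 164 calls were methylated in DDT, which allows up to 1.83%, and 3 of 79 in VEH. Of the DDT calls, 85 came from DDT replicate 4, and without it 0 of 79 allows up to 3.80%, the same as the VEH share.

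**Figure D3:**
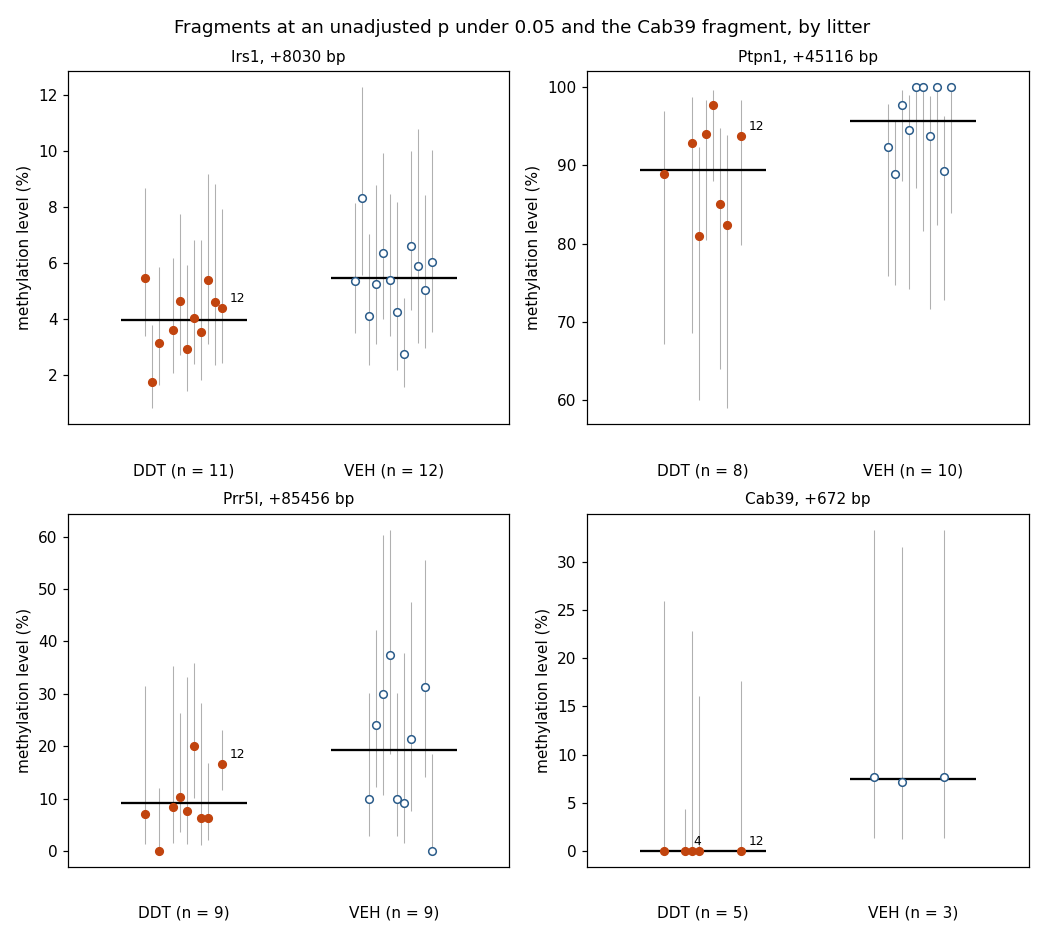
Methylation level in percent (y axis, scaled by panel and not starting at 0 in each) of each litter with at least 10 calls at the 3 fragments with an unadjusted p under 0.05 and at the Cab39 fragment called with 2 libraries per group, for DDT (filled) and VEH (open), with black lines for group means and grey bars for 95% Wilson intervals. The groups overlapped at the Irs1, Ptpn1 and Prr5l fragments, and at Cab39 the 3 VEH points rest on 1 methylated call each.

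Pck1 had no tested fragment at its start either. The fragment that covers it, at +12 bp, had at most 4 calls in any library. The 5 tested fragments were between 64.2% and 90.6% in VEH. Inside the gene, at +3166 bp, the level was 71.6% ± 8.65 (SD, n = 11) in DDT, against 72.6% ± 6.95 (SD, n = 12) in VEH, and at +5306 bp, in coding sequence, 87.1% ± 9.14 (SD, n = 11) and 90.6% ± 3.82 (SD, n = 12). DDT replicate 12 was the lowest DDT litter at both, at 48.1% and 60.7%. Without DDT replicate 12 the differences went from -1.02 to 1.33 and from -3.45 to -0.813 percentage points. DDT replicate 4 had no level at either fragment. The smallest p of the gene, 0.0999 by the F test, was at -97317 bp, with 56.2% ± 11.8 (SD, n = 9) and 64.2% ± 9.48 (SD, n = 12).

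The widest gap of a single litter among these genes was also assigned to Pck1, at -100746 bp between genes. The 12 VEH litters lay between 85.5% and 92.4% and 11 DDT litters between 85.3% and 94.0%, while DDT replicate 4 had 1.40%, from 2 of 143 calls (Wilson interval from 0.384% to 4.96%). The fragment directly before it on the chromosome, at -100867 bp, was at 100% of 152 calls in the same library. With all litters the difference at -100746 bp was -7.47 percentage points with a DDT SD of 25.6, and without DDT replicate 4 it was -0.121 (interval from -2.19 to 1.95) with an SD of 2.76. Across the 9 genes, the highest and the lowest level of each fragment were counted for 1 library each, with ties given to the first in order. By this count DDT replicate 4 was the highest or the lowest library at 31 of the 37 tested fragments where it had a level. DDT replicate 12 was so at 17 of 66, and no other library at more than 13. The same count over all tested fragments of the table is not given here, so it is not read as particular to these genes. The part of DDT replicates 4 and 12 in the group differences beyond the values given was not tested.

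At 70 of the 72 fragments the difference between the group means was no larger than the larger of the group SDs. It was larger than both SDs at the other 2 (2.78%, against 0.821% of all tested fragments), Irs1 +8030 bp and Ptpn1 +45116 bp. DDT was lower at 43 of the 72 fragments (59.7%) with a median difference of -0.302 percentage points, against 56.9% and -0.163 over all tested fragments. Without DDT replicates 4 and 12 it was lower at 38 of the 72 (52.8%) with a median of -0.0362, against 49.3% and 0.0138 in the table. The SD over litters was larger in DDT than in VEH at 57 of the 72 fragments (79.2%) and at 79.2% of the table, and at 44 (61.1%) and 60.0% without those libraries. For the direction and for the SD, the shares at the 9 genes were near those of all fragments. The share with a difference over both SDs was above that of all fragments and rested on 2 fragments. The 95% interval of the difference lay within 5 percentage points on either side of 0 at 40 of the 72 fragments, among them 24 of 33 at own starts and 11 of 34 away from starts, and it was 35.5 percentage points wide where it was widest, at Pik3ca +41252 bp. At the fragments with wider intervals, most of them away from starts, the interval reached beyond 5 percentage points from 0. The intervals are not adjusted over the table and do not give what difference the adjusted test could detect.

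**Figure D4:**
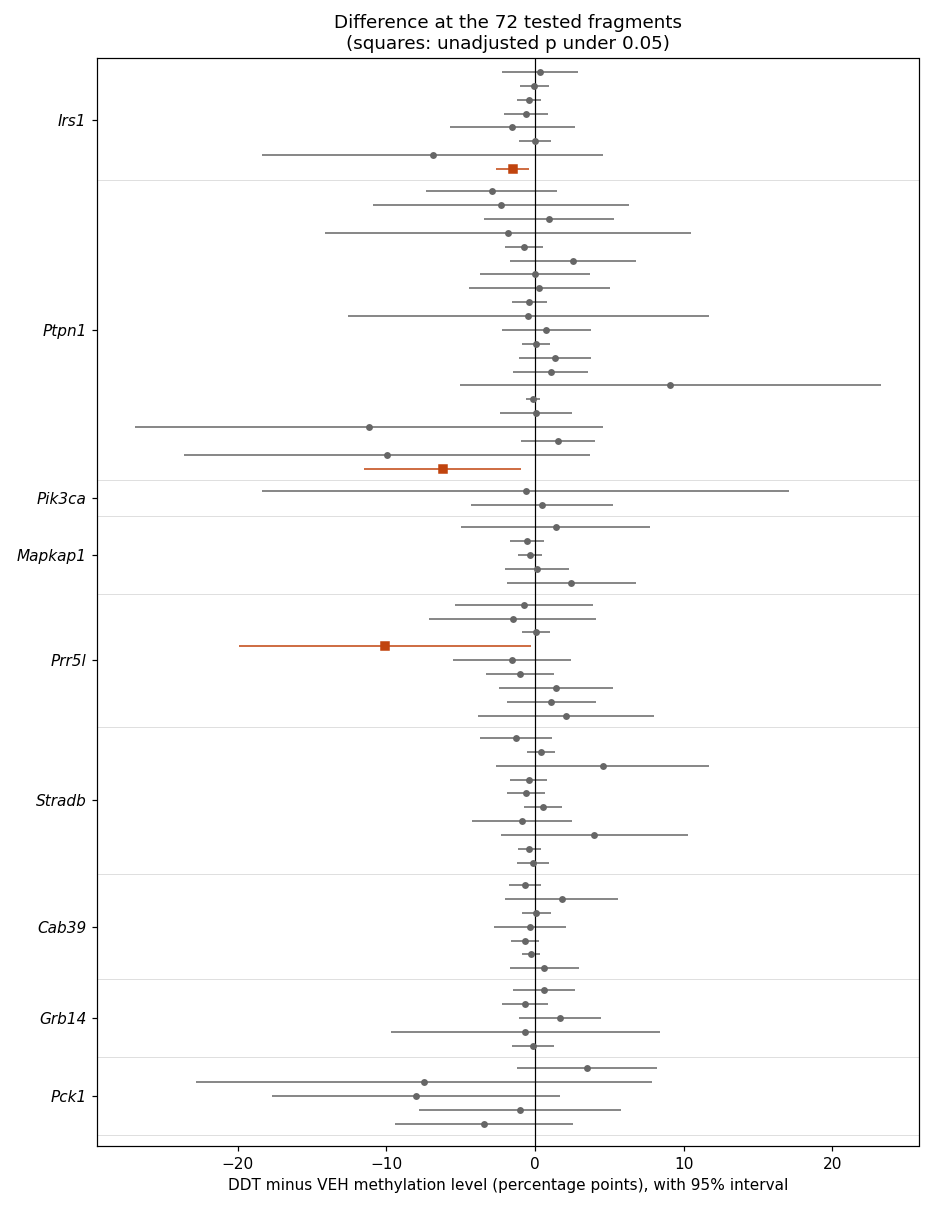
DDT minus VEH methylation level in percentage points (x axis) at each of the 72 tested fragments, grouped by gene and ordered within a gene by distance from the start, with bars for the 95% interval and squares for an unadjusted p under 0.05. The intervals at Irs1 +8030 bp, Ptpn1 +45116 bp and Prr5l +85456 bp leave out 0 on the lower side and the other 69 include it.

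Other genes of the pathway were read from a list of 143 genes without the 9 members, of which 25 had fragments and 19 had tested ones. Of their 147 tested fragments 8 had an unadjusted p under 0.05 (5.44%, against 4.18% of all tested fragments). Of the 8, 7 were lower and 1 was higher in DDT, against 593 lower and 252 higher over the table. At an adjusted p under 0.05 the count was 0, with limma and the quasi-binomial regression each also giving 8 unadjusted and 0 adjusted. The median difference over the list was 0.0873 percentage points, against -0.163 over the table. Phlpp1, a phosphatase that inactivates Akt, held 4 of the 8, all lower in DDT, among 22 tested fragments of which 12 were lower and 10 higher. Its smallest p was in an intron at +51240 bp, with 35.3% ± 6.86 (SD, n = 10) in DDT, against 43.2% ± 5.06 (SD, n = 12) in VEH (p = 0.00527 by the F test, adjusted p = 0.869), and all 10 DDT litters with a level were under the VEH median. At its start, at +308 bp, the levels were 2.36% and 3.94%. Lower levels in DDT were also at Ppp1r3d, a glycogen-targeting subunit of protein phosphatase 1 (3.42% and 4.63% at +354 bp), and at Inpp5d, a phosphatase of the lipid made by phosphatidylinositol 3-kinase that is known from blood cells (44.7% and 56.6% at +274 bp). A fragment assigned to Prkag3, a regulatory subunit of AMPK, but far upstream of it at -110092 bp and with 14 to 52 calls, was also lower (24.2% and 37.0%). A fragment at -54229 bp assigned to Igfbp2, which binds insulin-like growth factors, was higher in DDT (96.1% and 94.5%). None of these passed the adjustment over the table.

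The start windows that RefSeq gives for these genes in GRCm38, each 300 bases long, differed in how many sites they held. All 9 genes matched. The window of Ptpn1 held 47 CpG sites and 6 CCGG sites, that of Cab39 35 and 5, that of Irs1 28 and 3 and that of Stradb 20 and 3. The window of Pck1 held 6 and 1, and that of the annotated Prr5l start 3 and 0. Over the 32851 windows of the RefSeq table the median was 7 CpG sites, and 52.78% held at least 1 CCGG.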

How the data were processed

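Reduced representation bisulfite sequencing was done on DNA from BAT, with 12 DDT and 12 VEH libraries. The authors removed adapters with Scythe and low-quality bases with Sickle from reads of 50 bp and used Bismark 0.15.0, with Bowtie 2, for alignment to GRCm38. The deposited values are raw counts per MspI fragment, 1 of methylated and 1 of unmethylated CpG calls, beside the authors' annotation of the fragment. The annotation release is not given in the sources used here.

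Levels were methylated over all calls, in percent, from at least 10 calls. Each fragment with levels in at least 8 libraries of each group was compared by the ANOVA F test over litters, with Benjamini-Hochberg adjustment over all 20225 fragments, and single values by a two-sided permutation test, exact where 100000 or fewer arrangements exist. Alternatives were minimums of 5 and 20 calls, levels in all 24 libraries, at least 2 libraries per group, limma 3.58.1 (R 4.3.3) on log2((methylated + 1) / (not methylated + 1)), a quasi-binomial regression, the depth as covariate, the replicate number as a block, pooled calls and libraries left out. The F test, limma, the quasi-binomial regression and the replicate block were checked on simulated calls. Shifts were set only at fragments of middle level, with the same spread in both groups. The check does not cover low levels, a larger SD in DDT or shifts as small as most differences here. Other tools were Python 3.11.15, NumPy 2.4.6, pandas 2.3.3 and SciPy 1.17.1. Genes and start windows came from GENCODE M21 and RefSeq for GRCm38, and all 214 fragments began at a CCGG site.

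The 9 genes and the gene lists were chosen with earlier results of these data known. The fragments named are, for each gene, those with the smallest p, nearest to the annotated start, at an unadjusted p under 0.05 or called by an alternative, and, of the pathway list, genes with an unadjusted p under 0.05. Fragments outside this rule, among them those shown for their spread, were named after their values were seen.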

Additional observations from a re-analysis of the deposited data

Results flagged for a closer look

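Among the fragments named by the rule, the 10 groups with 4 to 10 litters were checked for a single litter far from the others, and 2 had one. Chance gives about 1 in 20 groups for normal values of equal precision. These levels are percentages from libraries of unequal depth, so that rate need not hold here. At Mapkap1 +34 bp, DDT replicate 10 had 29.3% (12 of 41 calls) while the other 7 DDT litters with a level were far lower. The gap was 0.859 of the range of the group. At Stradb -104724 bp, VEH replicate 1 had 70.6% (12 of 17 calls) and the other 7 VEH litters lay close together above it. The gap was 0.670 of the range.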

How the results depend on the processing

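The count of 0 fragments of the 9 genes at an adjusted p under 0.05 held with 5 or 20 calls, levels in all 24 libraries, limma, the quasi-binomial regression, the depth covariate, DDT replicates 4 and 12 left out and each library left out. It was 1, the Cab39 fragment, with at least 2 libraries of each group. The count at an unadjusted p under 0.05, 3 in the report, was 1 with 20 calls and 0 with levels in all 24 libraries, where fewer fragments were tested (63 and 31), and 1 to 4 with each library left out. It was 1 without DDT replicate 1, 5, 6, 7 or 10, where Ptpn1 +45116 bp was left with fewer than 8 DDT litters and not tested and Prr5l +85456 bp had a p of 0.0559 to 0.0672. For the pathway list it was 8 in the report, 4 with levels in all 24 libraries and 6 to 12 with each library left out. The shares of all tested fragments under the settings of this paragraph are not given here, so these counts are not set against the table. Replicate numbers are shared between the groups, but same-numbered litters did not deviate together (correlations from -0.180 to 0.199, 3 of 12 over 0.1, and 0 of 12 DDT litters correlated best with their own number). With the replicate block the counts were also 0, 3 and 8. The 3 were not the same fragments as in the report, since Prr5l +85456 bp had p = 0.302 with that block. Its difference there was -6.96 percentage points.

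Differences near 0 turned sign, and the cause was not tested. At Irs1 -206 bp the value was 0.0152 with the quasi-binomial regression and with pooled calls, 0.350 without DDT replicates 4 and 12, and -0.240 to 0.278 with each library left out. At Pik3ca +41252 bp it was 2.96 with the replicate block, 0.989 with depth as a covariate and -4.32 to 2.21 with each library left out. At Pik3ca +70138 bp it was -1.52 without DDT replicate 4 and -1.52 to 1.20 with each library left out. At Mapkap1 +34 bp it was -1.23 with the quasi-binomial regression and with pooled calls. At Prr5l -22352 bp it was -0.0903 with 5 calls and -0.180 to 0.279 with each library left out. At Pck1 +3166 bp it was 0.0195 with the depth covariate, 1.33 without DDT replicate 12 and -2.03 to 1.33 with each library left out. At Ptpn1 -30 bp it was -0.147 to 1.503 with each library left out. On the log2 ratio scale of limma the values were -0.0289 at Ptpn1 -30 bp, -0.0579 at Mapkap1 +34 bp and -0.00833 at Prr5l -22352 bp.

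Unadjusted p-values also crossed 0.05 at Stradb -148 bp without DDT replicate 12 (0.0371) and at Pck1 -97317 bp without VEH replicate 8 (0.0425). Depth left 31 of the 72 fragments with levels in all 24 libraries, and Ptpn1 +45116 bp and Prr5l +85456 bp had levels in 18 libraries each.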
